A study of Mus musculus with 6 samples.

Results

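The 10 genes described here are 7 serotonin receptors (Htr1b, Htr1d, Htr2a, Htr2b, Htr2c, Htr4 and Htr7) and 3 genes of serotonin handling (the uptake transporter Slc6a4, the synthetic enzyme Tph1 and the breakdown enzyme Maoa). They were taken by gene name from an RNA-seq table of 46983 mouse genes, with no threshold on their values. Wild type C57BL/6J mice gave the aortic valves for 3 libraries of postnatal day 2 (PND2) and 3 libraries of 4 months. No transgene or agent was used, and each library pooled the valves of 5 to 6 mice, so differences between single animals cannot be seen. The labels call the libraries of an age biological replicates, and p-values measure the spread between these pools.

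Serotonin (5-hydroxytryptamine, 5-HT) is made from tryptophan by tryptophan hydroxylase and aromatic amino acid decarboxylase. Outside the brain it comes mainly from enterochromaffin cells of the gut and travels in platelets, which load it through the transporter encoded by Slc6a4. Cells read it through G protein-coupled receptors. The 5-HT1 receptors signal through Gi and lower cAMP, the 5-HT2 receptors signal through Gq and phospholipase C, and the 5-HT4 and 5-HT7 receptors signal through Gs and raise cAMP. Monoamine oxidases on the outer mitochondrial membrane break serotonin down. In heart valves the pathway is known from drug-induced valve disease, in which agonists of the 5-HT2B receptor thicken the leaflets.

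The 3 receptors of the 5-HT2 group share a coding exon of 201 bases, printed here because its reads were fewer at 4 months in Htr2a and more numerous in Htr2b, as given further on. Sequences are those of GENCODE M21 transcripts on GRCm38 (mm10), 5′ to 3′ as transcribed, and capitals mark the bases that are identical in all 3 genes. The exon is the second of 3 in Htr2a (chr14:74644988-74645188, plus strand), the third of 4 in Htr2b (chr1:86102422-86102622, minus strand) and the fifth of 6 in Htr2c (chrX:147169570-147169770, plus strand).
Htr2a: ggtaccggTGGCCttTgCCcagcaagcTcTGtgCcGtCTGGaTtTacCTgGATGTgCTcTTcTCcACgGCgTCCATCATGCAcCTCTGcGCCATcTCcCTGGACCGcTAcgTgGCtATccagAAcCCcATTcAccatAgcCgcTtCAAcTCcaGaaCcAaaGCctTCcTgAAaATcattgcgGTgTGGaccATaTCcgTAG
Htr2b: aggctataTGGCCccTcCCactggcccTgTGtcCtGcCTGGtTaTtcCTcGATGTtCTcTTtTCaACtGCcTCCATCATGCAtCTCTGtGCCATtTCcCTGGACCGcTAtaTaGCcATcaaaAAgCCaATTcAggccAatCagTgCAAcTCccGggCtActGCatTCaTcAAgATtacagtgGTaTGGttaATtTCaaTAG
Htr2c: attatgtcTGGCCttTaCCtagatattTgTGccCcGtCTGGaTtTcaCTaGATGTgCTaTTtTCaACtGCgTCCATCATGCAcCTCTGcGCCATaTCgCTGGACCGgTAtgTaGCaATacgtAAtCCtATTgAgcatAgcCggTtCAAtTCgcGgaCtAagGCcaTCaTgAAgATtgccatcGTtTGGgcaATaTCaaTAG
All 3 sequences were the same at 114 of 201 bases (56.7%). Htr2a and Htr2c shared 144 bases (71.6%), Htr2b and Htr2c 137 (68.2%), and Htr2a and Htr2b 130 (64.7%). The letters GACCGNTA, which here hold in frame the first 8 bases of the codons for Asp-Arg-Tyr, began at base 102 of the exon in each gene, with no match on the other strand. This DRY motif lies at the inner end of the third membrane helix, where the receptor couples to its G protein. Of 466 annotated wholly coding exons of this length, 6 (1.29%) held these letters on either strand, and the 3 printed here are among these 6. In Htr2c the same exon is known for A-to-I RNA editing of its transcript.

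Expression was measured in RPKM, reads scaled by exonic length and by the library's total. The RPKM values of all 6 libraries came back as whole reads when multiplied by length and library total (100% of gene values above 0, within 0.01 read). Totals ran from 29260736 to 38994657 at PND2 and from 23810507 to 37350916 at 4 months. Pearson's correlation of log2(RPKM + 0.1) across genes was 0.961 to 0.970 within an age, and no library stood apart. Of 25903 genes with at least 0.1 RPKM in 3 libraries, limma (2-sided, Benjamini-Hochberg over all of them) called 9273 (35.8%) at an adjusted p under 0.05, 3810 (14.7%) higher and 5463 (21.1%) lower at 4 months. Over all genes the log2 fold change had a median of -0.14. Scaling each library to its median gave -0.024 and moved the split to 4573 higher and 4172 lower, so 52.3% of calls were higher in place of 41.1%. Folds on the log2(RPKM + 0.1) scale understate the change of low genes.

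Of the 10 genes, 7 passed the filter on low values, and Htr2c, Htr4 and Htr7 did not. Htr1b and Htr2b were higher at 4 months, 2 of 7 beside the 14.7% of all genes called higher, and these were also the 2 members whose ages did not overlap. The ages did not overlap in 50.0% of all genes tested, with 4 months higher in 20.0% and PND2 higher in 29.9%. None was lower, where 21.1% of all genes were. The count of lower members was also 0 at an unadjusted p under 0.05 and 0 with voom on the recovered reads. The 7 genes had a median log2 fold change of -0.039. On the RPKM scale, which is per length, Maoa led in every library and Htr1b followed. At PND2 Htr2a came next, then Slc6a4, with Htr2b below both in every library, and Htr1d and Tph1 overlapped Htr2b. The highest Htr1d library also reached above Slc6a4. At 4 months Htr2b came next after Htr1b with no library overlapping Htr2a, and Htr2a and Slc6a4 overlapped.

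**Figure D1:**
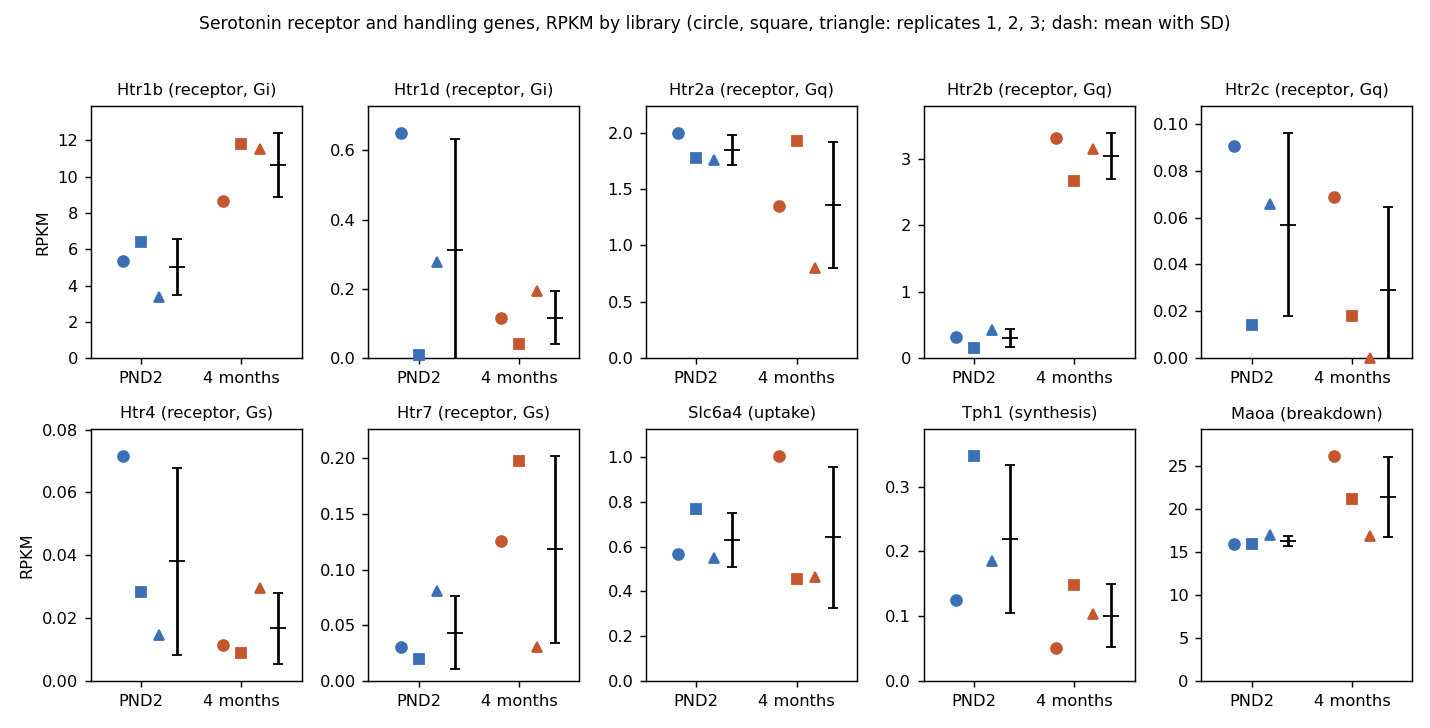
RPKM of the 10 genes in each library, 1 panel a gene with its own axis; circles, squares and triangles are replicates 1, 2 and 3 at PND2 (blue) and 4 months (orange), and the dash and bar are the mean and SD, with bars that would pass below 0 stopped there. Only the panels of Htr1b and Htr2b show every 4-month library above every PND2 library.

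Htr1b encodes the Gi-coupled 5-HT1B receptor, known in vessels for contraction of smooth muscle and as the target of the triptans. Its RPKM was 5.37, 6.37 and 3.36 in the PND2 libraries and 8.64, 11.8 and 11.5 in the 4-month libraries. All 3 adult values lay above all 3 neonatal values. The means were 5.04 ± 1.54 and 10.6 ± 1.75 (SD, n = 3 each), a 2.11-fold difference, and the log2 fold change was 1.10 (SE 0.25, limma adjusted p = 0.0144). These levels rest on 464 to 1574 reads a library. Without 4 months replicate 3 the log2 fold change was 1.04 and the adjusted p 0.0551, and the call was also lost with no filter on low values (0.0804) and with the unequal-variance test the study ran on each gene (0.114).

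The gene (chr9:81628291-81633828, minus strand) has nearly all of its length in 1 exon of 4581 bases, which held 98.4% of its reads. That exon had a log2 fold change of 1.10 and the short first exon 1.24. In the exon fit neither passed (limma on exon RPKM, adjusted p = 0.0505 and 0.144). The antisense gene D430036J16Rik shares 852 exonic bases with Htr1b, and no source says if reads were counted by strand. D430036J16Rik had 2.20 ± 0.565 RPKM at PND2 and 3.22 ± 0.464 at 4 months (log2 fold change 0.55, limma adjusted p = 0.125). Its 729-base exon inside Htr1b held 88, 123 and 89 reads at PND2 and 196, 109 and 181 at 4 months. Its 1100-base exon outside Htr1b held 35, 31 and 41 and then 35, 11 and 24. The larger adult read numbers thus lay on the shared exon and not on the outer one. In every library the shared exon also had a higher RPKM than the outer one. Reads of the pair cannot be told apart on the shared bases. The RPKM and log2 fold change given for D430036J16Rik include these reads, so they do not measure that gene alone. The part of Htr1b in them was not tested.

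Htr1d (chr4:136423524-136444398, plus strand) encodes the other Gi-coupled receptor of the set, found mainly on neurons. It had 0.649, 0.0102 and 0.278 RPKM at PND2 and 0.117, 0.0394 and 0.194 at 4 months. In reads these were 81, 1 and 26 and then 14, 3 and 18, so PND2 held both the highest and the lowest library. The log2 fold change of -0.60 had a 95% interval of -2.29 to 1.08 (limma adjusted p = 0.556), and without PND2 replicate 1 it was 0.023. All 143 reads of Htr1d lay on its last exon (2652 bases, 82.8% of its length), and 0 reads outside it allows a share of up to 2.10% there. A list of 10 neuron markers summed to 13.2, 7.48 and 16.8 RPKM at PND2 and 10.5, 6.26 and 3.43 at 4 months. Of its 7 genes tested, 1 was lower (Stmn2, log2 fold change -1.24), where 21.1% of all genes were. The part of neurons in Htr1d was not tested.

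Among the Gq-coupled receptors, Htr2b showed the largest difference of the 10 genes. It encodes the 5-HT2B receptor, which is needed for normal heart development in mice and is the receptor behind drug-induced valve thickening. Its RPKM was 0.325, 0.154 and 0.417 at PND2 and 3.32, 2.66 and 3.15 at 4 months. The adult libraries lay close together and far above the neonatal ones. The means were 0.299 ± 0.134 and 3.04 ± 0.340 (SD, n = 3 each), a 10.2-fold difference. The log2 fold change was 3.03 (SE 0.33, 95% interval 2.26 to 3.81, limma adjusted p = 6.7e-04), and leaving out each library in turn gave 2.74 to 3.25. With a pseudocount of 1 it was 1.64, and the other alternatives reached up to 3.46. In reads these values were 27, 10 and 26 against 264, 135 and 194, so the PND2 level rests on few reads. With the study's own per-gene test the adjusted p was 0.0641. In whole valves, more cells of a type and more RNA per cell cannot be told apart.

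The higher adult level was seen over exons 2 to 4 of the gene. Its 4 exons are listed in 7 partly overlapping forms, and all 7 had a log2 fold change above 0. Of these, 4 were higher (limma on 282267 exons, of which 8.42% were called higher). Those 4 were nested forms of exons 2 and 4, so they count some reads more than once. The 92-base exon 1 held 3, 0 and 0 reads at PND2 and 5, 0 and 2 at 4 months, with overlapping ages (limma adjusted p = 0.521). The last exon of 1207 bases held 14, 6 and 18 reads at PND2 and 173, 88 and 126 at 4 months (log2 fold change 3.17, limma adjusted p = 0.00552). The 201-base exon printed above held 7, 0 and 3 reads and then 19, 12 and 17, a log2 fold change of 2.81 that did not pass (limma adjusted p = 0.0529). Htr2b (chr1:86099026-86111970, minus strand) lies inside Psmd1, a proteasome subunit gene on the other strand, with 252 exonic bases in common. Psmd1 had 41.3 ± 2.89 RPKM at PND2 and 36.8 ± 2.68 at 4 months (log2 fold change -0.16, limma adjusted p = 0.240). The 1 Psmd1 exon that lies within an Htr2b exon held 0, 1 and 0 reads at PND2 and 31, 13 and 20 at 4 months, while the Psmd1 exons on either side of it held 108 to 489 reads in each library. The reads on the shared bases thus followed Htr2b and not Psmd1.

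Htr2a encodes the 5-HT2A receptor, which contracts vascular smooth muscle and primes platelets. Its RPKM was 1.99, 1.78 and 1.76 at PND2 and 1.35, 1.92 and 0.802 at 4 months. The neonatal values were close together, and of the adult values replicate 2 lay within their range and the others below it. The means were 1.84 ± 0.131 and 1.36 ± 0.560 (SD, n = 3 each), with a log2 fold change of -0.49 (SE 0.32, limma adjusted p = 0.285). The 95% interval was -1.25 to 0.27. The gene lies at chr14:74640840-74706859 on the plus strand.

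The exons of Htr2a did not all have the log2 fold change of the gene. Its middle exon, the 201-base exon printed above, had 2.42, 3.26 and 3.40 RPKM at PND2 and 0.799, 0.418 and 0 at 4 months. These are 19, 20 and 20 reads against 6, 2 and 0, with no overlap between the ages (25.5% of all exons did not overlap with PND2 higher). The log2 fold change was -3.11 (SE 0.83, limma adjusted p = 0.0339), the 1 exon called lower among the 66 exons of the 10 genes that were tested, where 12.7% of all exons were. It was singled out after its values were seen, and the call did not survive leaving out any PND2 library or 4 months replicate 2 (adjusted p 0.0571 to 0.100). The first exon had a log2 difference of -0.15 (limma, adjusted p = 0.875) and the last exon one of -0.51 (adjusted p = 0.440). As a share of all Htr2a reads, the middle exon held 8.23% (exact 95% binomial interval 5.02 to 12.5%), 12.4% (7.76 to 18.5%) and 13.1% (8.17 to 19.5%) at PND2. At 4 months the share was 4.00% (1.48 to 8.50%), 1.47% (0.179 to 5.21%) and 0% (0 of 69 reads, 0 to 5.21%). The exact permutation p over libraries was 0.1, the smallest that 3 against 3 can give, and the intervals cover counting error only.

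**Figure D2:**
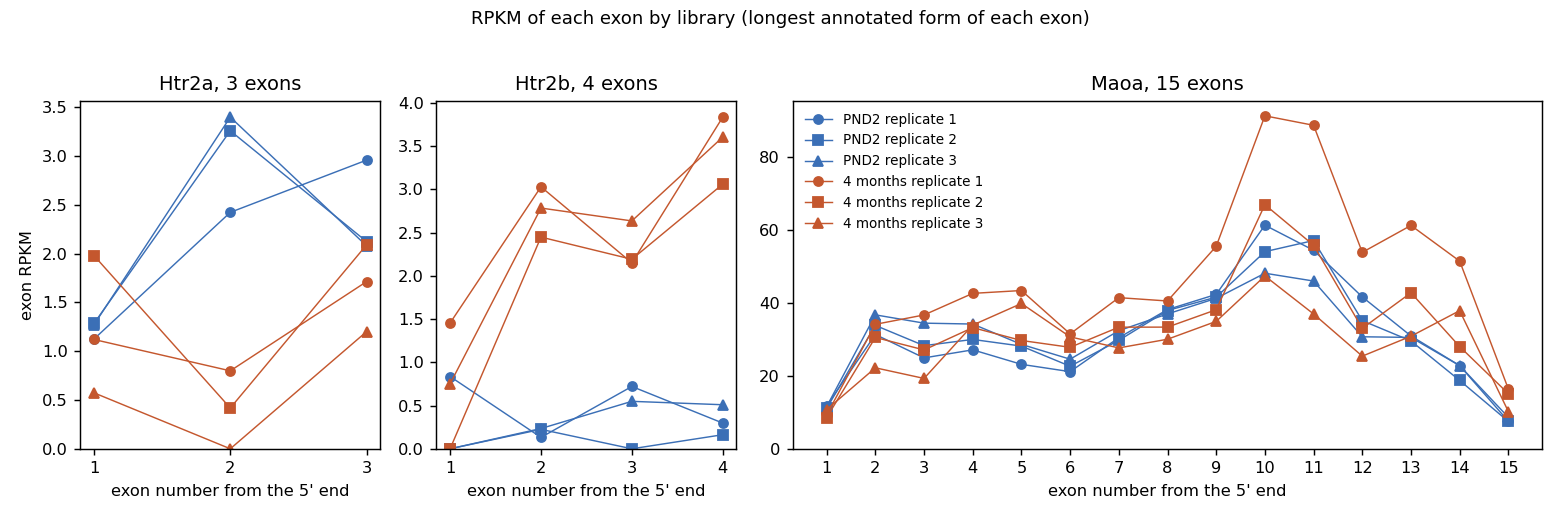
RPKM of each exon of Htr2a, Htr2b and Maoa, numbered from the 5′ end, with the longest listed form of each exon and 1 line a library (blue PND2, orange 4 months). The lines of the ages part at exon 2 of Htr2a (3.03 against 0.406 mean RPKM), over exons 2 to 4 of Htr2b, and, for Maoa, at exons 5, 6, 14 and 15 with 4 months above and at exon 1 with PND2 above.

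Htr2c (chrX:146962513-147197277, plus strand), a receptor of the central nervous system, was near the limit of detection. Its 83 reads in all (33, 4 and 18 at PND2 and 24, 4 and 0 at 4 months) lay on the last exon (3509 bases in its longest form), and 0 reads elsewhere allows a share of up to 3.61% there. Of its 16 listed exons, 14 had no read in any library, among them the 201-base exon printed above. Small RNA genes within its introns were also without reads, except for 2 reads of Gm24627 in PND2 replicate 2. Exons of Htr2c before the last were thus not detected at this depth.

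The Gs-coupled receptors were low too. Htr4, whose receptor raises rate and force in atrial muscle, had 13, 4 and 2 reads at PND2 and 2, 1 and 4 at 4 months, and 22 of these 26 reads lay on its last exon. Htr7 (chr19:35958734-36057507, minus strand), whose receptor relaxes vascular smooth muscle, had 4, 2 and 8 reads and then 16, 16 and 3. Its RPKM was 0.0433 ± 0.0326 at PND2 and 0.118 ± 0.0839 at 4 months (SD, n = 3 each), with overlapping ages and no test. Of the 7 other serotonin receptor genes, which are no members (Htr1a, Htr1f, Htr3a, Htr3b, Htr5a, Htr5b and Htr6), none passed the filter. They summed to at most 0.399 RPKM in a library, and Htr1f had no reads at all.

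The mix of receptor transcripts was not the same at the 2 ages in these libraries. The 7 receptors summed to 8.53, 8.38 and 5.97 RPKM at PND2 and 13.6, 16.6 and 15.7 at 4 months. Htr1b held the largest share at both ages, 65.1 ± 10.1% and 69.2 ± 5.16% (exact permutation p = 0.6). The share of Htr2b was 3.81, 1.84 and 6.98% at PND2 and 24.3, 16.0 and 20.0% at 4 months, a difference of 15.9 percentage points. The share of Htr2a was 24.7 ± 4.29% and then 8.86 ± 3.35%. A share also falls when the sum rises, and the RPKM of Htr2a itself overlapped between the ages (limma adjusted p = 0.285). For the share of Htr2b, the share of Htr2a and the sum the ages did not overlap. The exact permutation p was 0.1 for each, the smallest possible here. The ratio of Htr2b to Htr2a RPKM was 0.163, 0.0866 and 0.237 at PND2 and 2.45, 1.38 and 3.92 at 4 months, so every PND2 library held more Htr2a and every 4-month library more Htr2b.

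**Figure D3:**
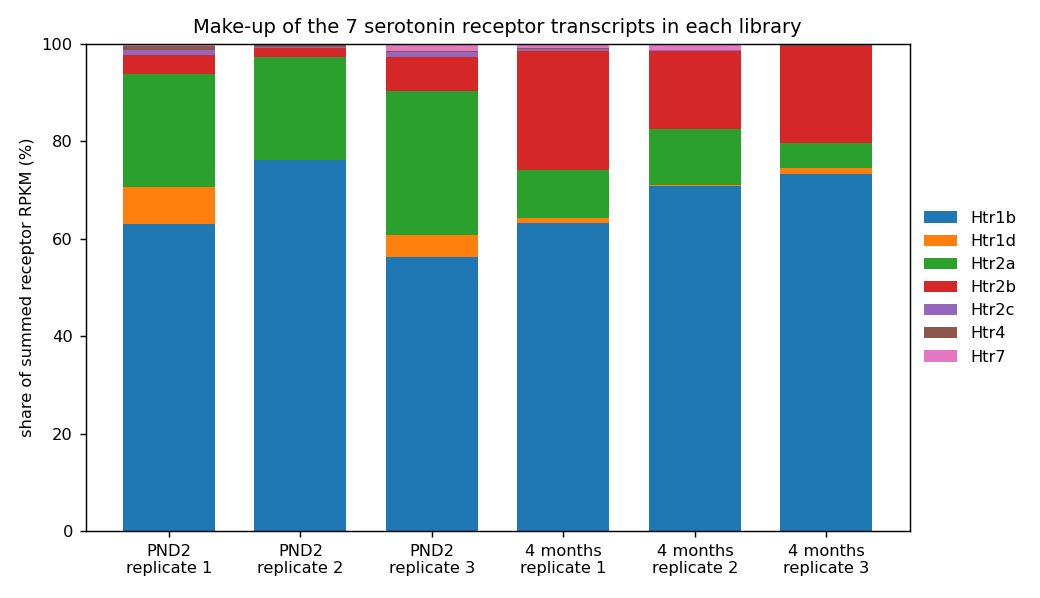
Share of each receptor in the summed RPKM of the 7 receptors, in percent, 1 bar a library. Htr2b (red) held 4.21 ± 2.60% at PND2 and 20.1 ± 4.17% at 4 months, Htr2a (green) held 24.7 ± 4.29% and 8.86 ± 3.35%, and Htr1b (blue) held the largest share in every library.

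Slc6a4 (chr11:76998603-77032340, plus strand) encodes the serotonin transporter, which clears serotonin into cells and fills platelets. Its RPKM was 0.566, 0.767 and 0.551 at PND2 and 1.00, 0.454 and 0.465 at 4 months. The adult libraries held both the highest and the lowest values. The log2 fold change was -0.039 (SE 0.37, 95% interval -0.90 to 0.82, limma adjusted p = 0.946). Its sign turned under median scaling (0.063) and with voom (0.013). None of the 17 Slc6a4 exons tested was called, where 21.1% of all exons were. Of 10 platelet markers 8 were tested and none was called by limma, where 35.8% of all genes were. In Gp9 (log2 fold change -0.87) and Itga2b (-0.67), which the naming rule did not reach, every PND2 library lay above every 4-month library. Of all genes tested 29.9% did so. The 10 markers summed to 77.6 to 81.9 RPKM at PND2 and 68.4 to 89.0 at 4 months. Most of this sum was Pf4, the most abundant (56.6 ± 3.18 and 58.8 ± 8.05), so it says little about the other markers.

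Tph1 (chr7:46647130-46672537, minus strand) encodes the tryptophan hydroxylase of cells outside the brain. It had 0.125, 0.347 and 0.186 RPKM at PND2 and 0.0509, 0.148 and 0.103 at 4 months, or 7 to 39 reads a library. The ages overlapped. The log2 fold change was -0.64 (SE 0.42, 95% interval -1.62 to 0.35, limma adjusted p = 0.279). Mast cells are known to make serotonin with Tph1 in rodents. Of 10 mast cell markers 6 were lower at 4 months, where 21.1% of all genes were. They were led by Tpsab1 (log2 fold change -2.66), Tpsb2 (-2.00), Cpa3 (-1.84) and Cma1 (-1.49). The 4 not called (Ms4a2, Mcpt4, Fcer1a and Mrgprb1, named here to complete the list) had log2 fold changes of 0.075 to 0.55. The list summed to 124 to 177 RPKM at PND2 and 57.4 to 74.8 at 4 months, and its part in Tph1 was not tested. Tph2, the neuronal enzyme, had 0.187, 0.0797 and 0.309 RPKM and then 0.102, 0.233 and 0.612 (log2 fold change 0.40, limma adjusted p = 0.622).

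Maoa encodes monoamine oxidase A, which prefers serotonin and noradrenaline as substrates. Its RPKM was 16.0, 16.0 and 17.0 at PND2 and 26.2, 21.2 and 16.9 at 4 months. Of the adult libraries 2 lay above the neonatal range and replicate 3 lay within it. The means were 16.3 ± 0.564 and 21.4 ± 4.65 (SD, n = 3 each), a ratio of 1.31, and the log2 fold change was 0.37 (SE 0.16, 95% interval -0.0087 to 0.75, limma adjusted p = 0.117). It passed under median scaling (log2 fold change 0.49, adjusted p = 0.0355) and without 4 months replicate 3 (0.53, 0.0353). The 5 genes nearest to Maoa in pattern, by the root mean square distance of log2(RPKM + 0.1) over the 6 libraries, were Plekha2 (0.110), Ino80c (0.117), Nicn1 (0.125), Gpd1l (0.135) and Xrcc5 (0.148).

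Along the gene (chrX:16619698-16687818, plus strand) the larger differences between the ages lay at the 3′ end. Of its 15 exons, 1 was higher, the 63-base exon 14 (log2 fold change 0.83, limma adjusted p = 0.0458), where 8.42% of all exons were. The last exon of 2587 bases had 7.88 ± 0.645 RPKM at PND2 and 13.9 ± 3.26 at 4 months (log2 fold change 0.78, limma adjusted p = 0.0706), and the first exon had a log2 fold change of -0.27. The ratio of the last exon to the mean of the others was 0.229, 0.229 and 0.263 at PND2 and 0.337, 0.433 and 0.334 at 4 months, without overlap (exact permutation p = 0.1, the smallest possible). In the exon fit the last exon moved 0.62 (log2) above the mean of the other exons. The same difference over 13815 genes had a median of 0.14 (quartiles -0.064 and 0.36) and was smaller in 88.5% of them.

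Maob encodes the other monoamine oxidase and is given because of its like function. It had 8.78, 8.64 and 11.6 RPKM at PND2 and 74.2, 67.8 and 67.1 at 4 months (log2 fold change 2.85, limma adjusted p = 3.2e-05). The ratio of Maob to Maoa was 0.549, 0.541 and 0.685 at PND2 and 2.83, 3.20 and 3.97 at 4 months. Maob thus held 35.1 to 40.7% of the pair's RPKM in neonatal valves and 73.9 to 79.9% in adult valves (exact permutation p = 0.1, the smallest possible).

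The other genes of serotonin synthesis, storage, uptake and breakdown moved in both directions. Of 16 on the list, 14 were tested, 6 were higher, 4 were lower, and the median log2 fold change was 0.29, beside -0.14, 14.7% higher and 21.1% lower over all genes. Ddc, the decarboxylase that completes serotonin synthesis, had 29.8, 22.9 and 43.1 RPKM at PND2 and 0.918, 3.92 and 1.48 at 4 months (log2 fold change -4.05, limma adjusted p = 0.00104). Pcbd1, which recycles the tetrahydrobiopterin that Tph1 needs, fell by 2.28 on the log2 scale (limma adjusted p = 8.0e-04). Aldh2, which oxidises the aldehyde that the monoamine oxidases leave, had 34.9, 37.0 and 35.4 RPKM and then 186, 166 and 167 (log2 fold change 2.27, limma adjusted p = 1.8e-05). Beside Maob, these had the largest absolute log2 fold changes of the list, on a scale that understates the change of low genes. The others called, which the naming rule did not reach, were the low-affinity transporters Slc22a3 (log2 fold change 1.99) and Slc29a4 (-2.26), the vesicular transporter Slc18a1 (-1.37), the tetrahydrobiopterin enzymes Gch1 (0.83) and Spr (0.90), and the transglutaminase Tgm2 (0.43). Asmt, the last step to melatonin, had no reads.

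**Figure D4:**
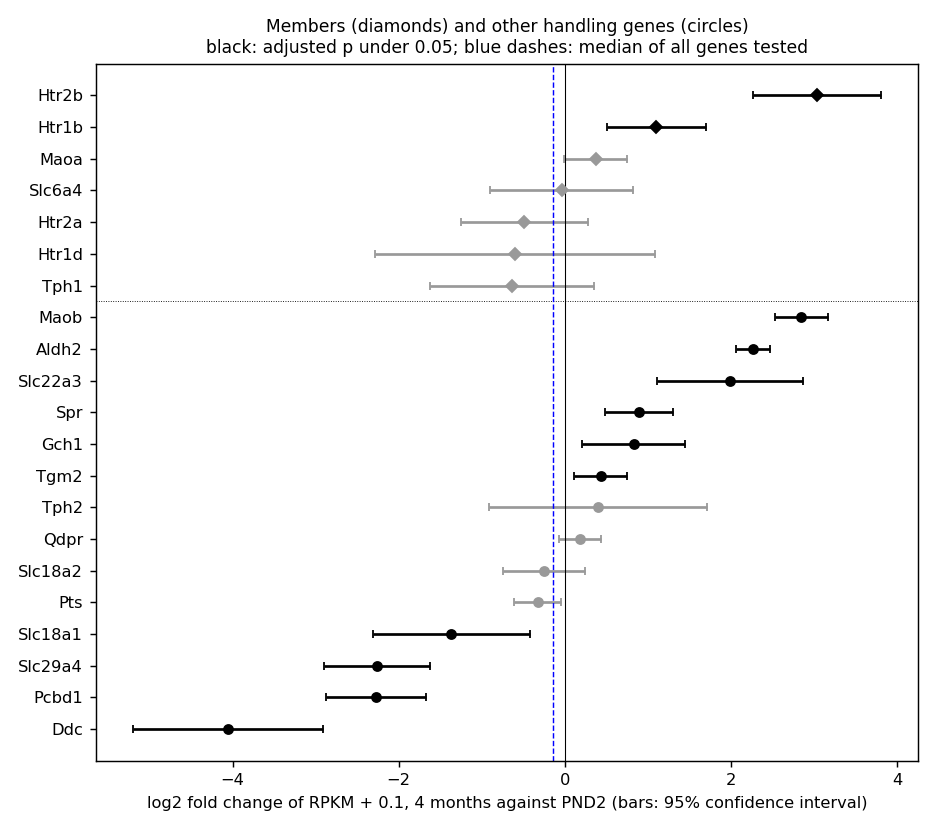
Log2 fold change of RPKM + 0.1, 4 months against PND2, with 95% intervals, for the 7 members tested (diamonds) and the 14 other handling genes tested (circles); black passed an adjusted p under 0.05 in limma, grey did not, and the blue dashes mark the median of all genes (-0.14). Htr2b, Maob and Aldh2 lie far to the right, and Ddc at -4.05 far to the left.

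Signalling partners of the 3 receptor classes were expressed at both ages. The counts below stand beside 14.7% higher and 21.1% lower over all genes, with a median log2 fold change of -0.14. Of 13 genes of the Gq arm 4 were higher and 1 lower (median log2 fold change 0.23). The phospholipases Plcb4 (1.57) and Plcb1 (1.10) and the inositol trisphosphate receptor Itpr1 (1.39) were higher, and Itpr2 (-0.71) was lower, by limma with adjusted p from 1.5e-04 to 0.0108. Of 7 genes of the Gi arm 4 were higher and 1 lower (median 0.96), with the potassium channel Kcnj3 (2.25) and the G protein subunits Gnao1 (1.43), Gnaz (1.31) and Gnai1 (0.96) in front. Of 16 genes of the Gs arm 6 were higher and 3 lower (median 0.22), among them the adenylyl cyclases Adcy7 (2.69), Adcy5 (1.48), Adcy9 (1.33) and Adcy4 (-1.04). Of 12 receptor regulators 3 were higher and 2 lower (median 0.29), with Rgs2 (1.05), which acts on Gq, and Rgs4 (0.78) up and Rgs5 (-0.99) and Rgs3 (-0.94) down. Many other receptors use these partners.

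Cell type markers also moved with age beside these genes. Among all genes tested 14.7% were called higher and 21.1% lower. Of 10 valve interstitial markers 2 were higher and 5 lower. The list summed to 6619 to 7304 RPKM at PND2 and 8080 to 10191 at 4 months, with Dcn alone at 1054 ± 60.0 and 3961 ± 506. The cardiomyocyte sum, given below, lay above the valve interstitial sum in every PND2 library and in 4 months replicate 2 (11092 against 8080). Of 8 smooth muscle markers 6 were higher (3386 to 3813 RPKM in sum, then 7533 to 12053), 5 of 7 macrophage markers were higher (196 to 247, then 409 to 528), and 7 of 8 adipocyte markers were higher (69.2 to 152, then 339 to 1458). Most of the adipocyte sum at PND2 was Fabp4 (147, 63.7 and 77.9 RPKM), the adipocyte marker not called. All 8 endothelial markers were lower (491 to 693, then 265 to 292), as were 4 of 9 cardiomyocyte markers (17889 to 20142, then 6457 to 11092) and 3 of 6 melanocyte markers (54.0 to 102, then 33.8 to 57.5). Of 8 Schwann cell markers 3 were higher (14.6 to 35.7, then 52.1 to 58.4). Calls are those of limma, and no marker list had a gene at 0 in every library. Among adult libraries replicate 2 had the lowest Htr2b RPKM of the 3, the highest Htr1b and the highest Htr2a. The same library had the highest adipocyte (1458) and cardiomyocyte (11092) sums. Its smooth muscle (7533), macrophage (409), Schwann cell (52.1) and valve interstitial (8080) sums were the lowest. Its mast cell (74.8) and endothelial (292) sums were also the highest, and its platelet sum (68.4) was the lowest. Orders of 3 libraries cannot tell cell types apart. The part of any cell type in the levels of the serotonin genes was not tested.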

How the data were processed

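RNA-seq libraries from pooled aortic valves, 3 at PND2 and 3 at 4 months, were compared. Per the labels a stranded mRNA kit was used. The authors filtered and trimmed paired reads, aligned them to mm10 with TopHat2 2.1.0, and counted on Ensembl genes and exons with easyRNASeq (their statistics used R 3.2.2); whether counting used strand is not stated, nor whether the totals are reads or pairs. What the authors deposited is RPKM for genes and for exons, before their read minimum and floor. All columns of per-sample values were mapped to a sample.

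Reads were recovered as RPKM times length times library total. Over all genes these reads came to 2.31 to 2.36 times the totals, so the totals and the gene reads do not count the same unit once each. Exons listed more than once at the same coordinates within a gene were used once (387776 of 448141). Genes and exons with at least 0.1 RPKM in 3 libraries were compared with limma 3.58.1 (R 4.3.3, the data.table package, version 1.17.8) on log2(RPKM + 0.1), with eBayes, a trend, 2-sided tests and Benjamini-Hochberg adjustment over every gene or exon tested (threshold 0.05). The study's own per-gene unequal-variance test was an alternative. Single values were compared by an exact 2-sided permutation test over libraries. Shares of reads in single libraries have exact binomial intervals (95%). The counts of 0 outside the last exon of Htr1d and Htr2c are given the limit of 3 reads. Tables, sequences and figures used matplotlib 3.10.9, scipy 1.17.1, pandas 2.3.3 and numpy 2.4.6 in Python 3.11.15. The fits were tested on simulated data.

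The members and lists were chosen with earlier results of these data known. All 10 members are named. From each list, up to 4 genes with the largest absolute log2 fold change among those called and without overlap are named, with genes of the same function as a member, genes that overlap one, the 5 genes nearest in pattern to the most abundant member, and the most abundant platelet marker. The lists were other serotonin receptors, serotonin handling, the Gq, Gs and Gi arms, receptor regulators, and markers of platelets, mast cells, neurons, Schwann cells, smooth muscle, cardiomyocytes, adipocytes, macrophages, endothelium, melanocytes and valve interstitial cells. Alternatives were pseudocounts of 1 and 0.01, no filter, at least 1 RPKM, no trend, median scaling, voom, a replicate block, a floor of 10 reads with the study's test, and each library left out in turn. Those for the middle exon of Htr2a were added after the data were seen.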

Additional observations from a re-analysis of the deposited data

How the results depend on the processing

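The number of the 10 genes called higher was 2 with every library left out in turn (2 to 2, with Maoa in place of Htr1b without 4 months replicate 3), 1 with no filter on low values (Htr2b) and 0 with the study's per-gene test, which called 3341 genes in all against 9273. It was 3 under median scaling and 2 with voom, which called 9696 genes. Leaving out single libraries gave 6447 to 8688 genes in all. The causes were not tested. Median scaling and voom turned the sign of Slc6a4 (log2 fold change 0.063 and 0.013), and leaving out single libraries gave -0.37 to 0.13. That of Htr1d ranged from -1.36 to 0.023. The Htr2b share difference ranged from 13.8 to 18.0 percentage points, and the member exons called from 4 to 9 around 6. Without single libraries the middle exon of Htr2a ranged from -3.77 to -2.18 (log2). A pseudocount of 1 gave -1.55 for it and 1.64 for Htr2b, whose log2 fold change was 1.64 to 3.46 over all alternatives.

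The replicate numbers do not mark a shared origin in the labels, and deviations of same-numbered libraries correlated at 0.0439, -0.0608 and -0.160. PND2 replicate 2 correlated best with 4 months replicate 3 (0.233). With the replicate block 7167 genes and 5 member exons were called, the same 2 members were higher (adjusted p = 0.0291 for Htr1b and 0.0037 for Htr2b), the middle exon of Htr2a had an adjusted p of 0.0533 in limma, and the Htr2b share difference of 15.9 had an exact permutation p of 0.25, the smallest 3 pairs can give.

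Depth limits Htr1d, Htr2c, Htr4, Htr7 and Tph1, which had at most 81 reads in a library, and with 3 libraries an age no single value can pass an exact test.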
